A study of Mus musculus with 6 samples.

Results

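The levels of 10 genes of the brain vessel wall were followed in the prefrontal cortex of singly and group-housed mice: those of the receptor genes Flt1, Kdr and Tek, the haemostasis gene Vwf, the adhesion and junction genes Pecam1, Cdh5 and Cldn5, and the transporter genes Slc2a1, Mfsd2a and Abcb1a. They were chosen by symbol as markers of endothelial cells and of the blood-brain barrier. All 10 of 10 were found among the 23284 gene rows of the deposited table, and all 10 were among the 15258 genes that passed the filter on low counts. The question put to them was whether a higher level of Vwf in single-housed mice, known from an earlier look at these data, was shared by other endothelial genes. Wild-type C57BL/6 mice kept alone gave 3 libraries and mice kept in groups gave 3, at an age of 8 to 10 weeks and after 6 days of housing. No treatment other than housing is named, and no allele is shared beyond the wild-type background. Libraries held 25858355 to 33428512 counted reads. Whether every library stands for a separate mouse is not stated, so the errors and p-values below cover the spread between libraries, part of which may be technical. Strings of 3 values are given in the order of replicates 1, 2 and 3 of a group, and a comparison joined by "against" puts the single-housed value before the group-housed one.

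Endothelial cells line the vessels of the brain and are joined by tight and adherens junctions, so that most solutes cross only through transporters. Vascular endothelial growth factor, made largely by neurons and glia, acts on these cells through receptors encoded by Flt1 and Kdr, and angiopoietins act through the receptor encoded by Tek. Wnt ligands from the surrounding tissue maintain the barrier properties of the cells, and von Willebrand factor, the product of Vwf, is stored in their Weibel-Palade bodies and released to capture platelets. In brain, Vwf is known to be higher in larger vessels, veins above all, than in capillaries, whereas Mfsd2a is known as a capillary gene.

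RefSeq upstream windows (GRCm38.p6, 250 bases before the annotated start) were at hand for 7 of the 10 genes, with none for Vwf, Pecam1 and Cdh5. The windows of Kdr, Flt1 and Cldn5 are printed because Kdr and Flt1 had the largest housing differences among these 7 genes and Cldn5 had one close to 0. Capitals mark the sequence GGAA on either strand, the core bound by ETS transcription factors, a family known to act in endothelial genes.
Kdr (chr5:75978456-75978705, minus strand): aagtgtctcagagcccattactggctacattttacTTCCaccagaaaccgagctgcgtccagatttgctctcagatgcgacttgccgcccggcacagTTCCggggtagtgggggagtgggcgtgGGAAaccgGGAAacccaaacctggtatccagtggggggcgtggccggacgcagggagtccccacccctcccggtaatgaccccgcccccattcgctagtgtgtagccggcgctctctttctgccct
Flt1 (chr5:147726012-147726261, minus strand): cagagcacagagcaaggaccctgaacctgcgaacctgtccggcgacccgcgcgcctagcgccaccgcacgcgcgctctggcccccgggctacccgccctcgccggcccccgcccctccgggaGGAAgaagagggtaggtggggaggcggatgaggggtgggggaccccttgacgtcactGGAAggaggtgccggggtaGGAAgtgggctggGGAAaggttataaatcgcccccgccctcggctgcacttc
Cldn5 (chr16:18776597-18776846, plus strand): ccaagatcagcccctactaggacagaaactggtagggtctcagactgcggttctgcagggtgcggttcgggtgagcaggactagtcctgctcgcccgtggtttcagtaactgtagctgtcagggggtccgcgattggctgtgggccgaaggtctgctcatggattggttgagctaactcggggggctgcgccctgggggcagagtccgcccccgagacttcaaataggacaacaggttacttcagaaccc
The Kdr and Flt1 windows held 4 matches each and the Cldn5 window 0, but over the 7 windows the matches did not follow the housing differences given below. The most matches, 5, were in the window of Abcb1a, whose difference was close to 0, the Slc2a1 window held 0, and those of Tek and Mfsd2a held 2 each. Windows with this core were the rule, since 93.5% of 32851 RefSeq windows of the same length had at least 1 match, with a median of 3. The longer form CCGGAA on either strand, which contains the core, was found in the Kdr window alone among the 7 and in 12.03% of all windows. The GC box GGGCGG on either strand was found in 4 of the 7 windows, those of Kdr, Flt1, Cldn5 and Slc2a1, against 32.7% of all windows, and TATAAA, searched on both strands, only in that of Flt1 among the 7, against 12.4%. The windows were 59.6% (Cldn5), 61.6% (Kdr) and 70.4% (Flt1) GC, with a median of 52.4% over all windows. These matches describe letters and not bound sites.

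Levels between genes were compared as TPM, in which counts are divided by gene length and scaled to the same total in each library. Slc2a1, which encodes the glucose transporter GLUT1, was the highest at 104 ± 7.26 TPM (SD over 6 libraries). Cldn5, the main claudin of brain endothelium, followed at 64.9 ± 15.1 TPM and Mfsd2a, a transporter of lysophosphatidylcholine lipids, at 33.6 ± 2.95 TPM. The ranges of these 3 did not overlap with each other or with the next gene. Pecam1 and Flt1 were both at 14.9 TPM (SD 0.936 and 2.06), and Pecam1 was above Flt1 in 2 of 6 libraries, so their order is not resolved. Abcb1a, the P-glycoprotein efflux pump gene, was at 12.2 ± 0.348 TPM and below Flt1 in each library. Cdh5, which encodes VE-cadherin, was at 10.1 ± 1.56 TPM, and Tek was at 7.89 ± 0.429 TPM. Vwf and Kdr were the lowest at 6.08 ± 1.33 and 5.96 ± 0.844 TPM, and Vwf was above Kdr in 4 of 6 libraries. The other neighbouring pairs, from Slc2a1 to Vwf, kept their order in 6 of 6 libraries. GLUT1 is also made by other cells of the brain, so its TPM in whole tissue is not that of endothelium alone.

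**Figure D1:**
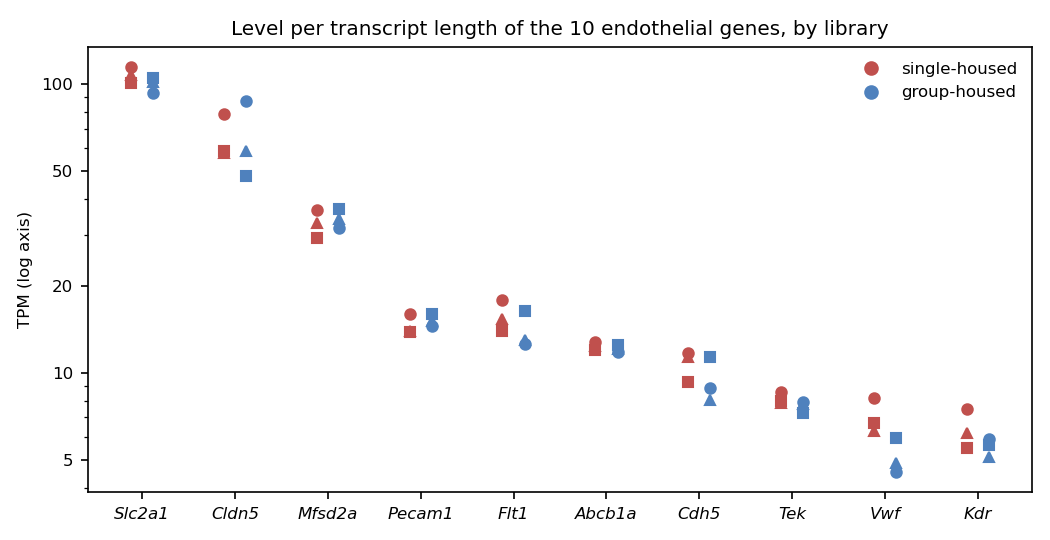
Level per gene length (TPM, logarithmic axis) of the 10 genes in each of the 6 libraries, ordered by mean; colours mark housing and circle, square and triangle mark replicates 1, 2 and 3. Slc2a1 lies near 104 TPM and Vwf and Kdr near 6 TPM, and the housing groups overlap for each gene but Vwf.

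The defining endothelial markers were thus present in each library, with at least 295 counts for each of the 10 genes. Of neuronal genes, Snap25, expressed by neurons of all brain regions, and Slc17a7, typical of excitatory neurons of cortex and hippocampus, had at least 97630 and 52991 counts per library. Libraries also differed in striatal genes: the summed level of 20 such genes was 2878, 1515 and 639 CPM (counts scaled to the library total) in the single-housed mice and 1471, 668 and 732 CPM in the group-housed mice. In this bulk tissue, fewer endothelial cells and less RNA per cell cannot be told apart.

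Vwf differed between the housing groups without overlap, and none of the other 9 genes did. Of the 10 genes, 7 had a higher and 3 a lower mean level in single-housed mice, with a median log2 difference (single-housed minus group-housed, on the scale of TMM-scaled counts) of 0.08, against 0.00147 over all genes tested, of which 50.7% were higher. In the quasi-likelihood test of edgeR, adjusted over all genes by the Benjamini-Hochberg method, 0 of 10 passed the threshold of 0.05 in either direction, as did 0% of the 15258 genes tested (the adjusted p of each member was 0.9999). At an unadjusted p under 0.05 there was 1 of 10, Vwf, against 1.56% of all genes tested (0.832% higher and 0.727% lower in single-housed mice), and DESeq2 and limma-voom also called 0 of 10. The groups did not overlap for 1 of the 10, again Vwf, against 4.86% of all genes tested (2.46% higher and 2.4% lower in single-housed mice). Vwf was known to differ, so both counts were fixed by the choice of gene, and for the other 9 they were 0. Leaving Vwf out, the median log2 difference was 0.07.

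**Figure D2:**
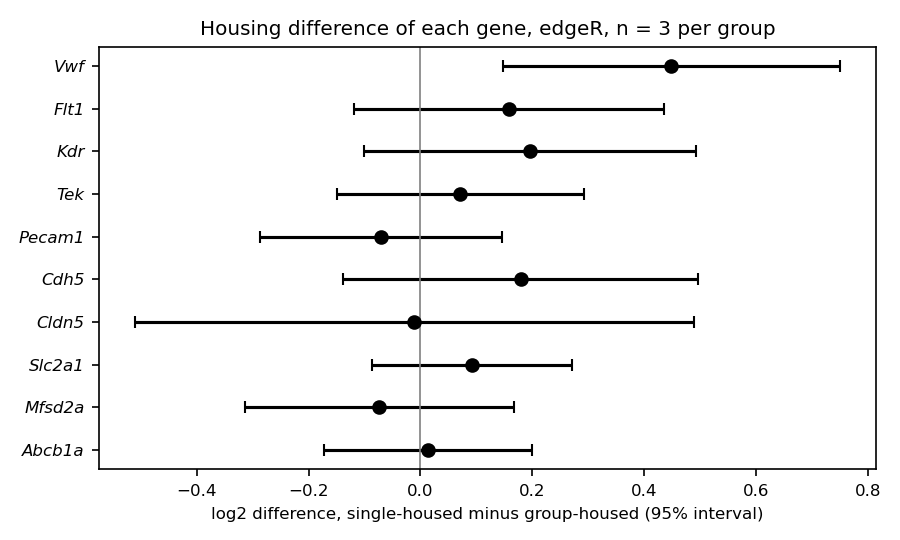
Log2 difference of each gene (single-housed minus group-housed, edgeR, 3 libraries a group), with bars for the 95% interval that is not adjusted for the number of genes. Vwf is at 0.45, the other 9 lie between −0.07 and 0.20, and each of their intervals includes 0. Vwf was chosen for its difference, so its interval is a description.

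Vwf encodes the large adhesive glycoprotein that binds platelets and carries coagulation factor VIII. It was at 24.7, 20.03 and 18.8 CPM in the single-housed mice and 13.8, 17.5 and 15.2 CPM in the group-housed mice (chromosome 6, 125502981 to 125636695, plus strand, mm9; CPM here and below are TMM-scaled). Each single-housed library was above each group-housed library, and the closest values, 18.8 and 17.5 CPM, were nearer to each other than the highest and lowest within either group. The log2 difference was 0.45 (SE 0.133), a fold of 1.36 with a 95% interval of 1.11 to 1.68. Vwf was chosen for this difference, so the fold and its interval are descriptions of these libraries and not a test. Of all genes tested, 343 (2.25%) had a difference at least as large. Leaving out 1 library at a time gave 0.32 (without single-housed replicate 1) to 0.55 (without group-housed replicate 2). With the 3 libraries of highest striatal markers left out, which sets 1 single-housed against 2 group-housed libraries and was tried only once the data had been seen, the difference was 0.20 (SE 0.176). With the striatal list mean as a covariate it was 0.41 (SE 0.141). The part of the striatal difference in the Vwf values was not otherwise tested.

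**Figure D3:**
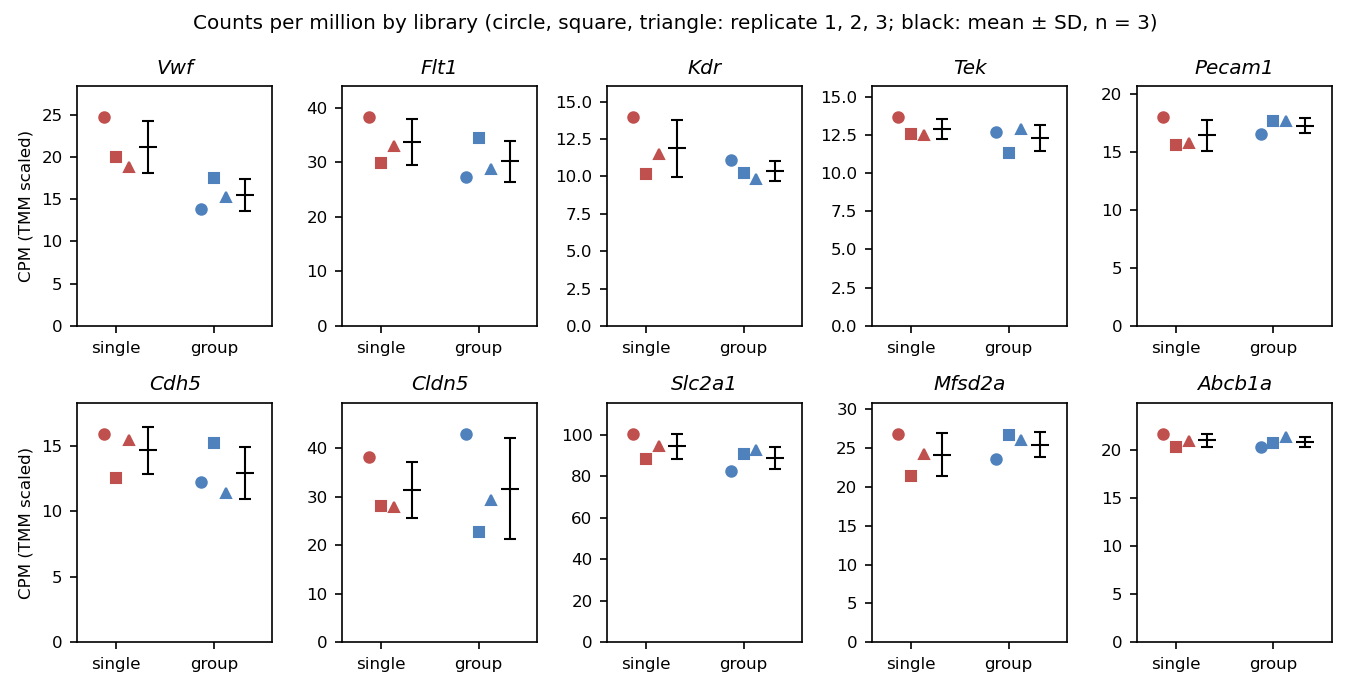
CPM (TMM-scaled, axes from 0) of the 10 genes in each library, with the mean and SD of each group in black. The 3 single-housed values of Vwf, 18.8 to 24.7 CPM, lie above the 3 group-housed values, 13.8 to 17.5 CPM, while the groups of the other 9 genes overlap.

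The receptor genes differed in the same direction as Vwf by smaller amounts that did not pass the test. Flt1, whose product binds vascular endothelial growth factor tightly and limits how much reaches Kdr, was at 38.3, 29.9 and 32.99 CPM in the single-housed mice and 27.3, 34.5 and 28.8 CPM in the group-housed mice (chromosome 5, 148373772 to 148537564, minus strand). Group-housed replicate 2 was above single-housed replicates 2 and 3, so the groups overlapped, and the log2 difference was 0.16 (SE 0.122, 95% interval −0.12 to 0.44). Kdr, the main signalling receptor of the growth factor, was at 14.0, 10.2 and 11.5 CPM in the single-housed mice and 11.1, 10.2 and 9.81 CPM in the group-housed mice (chromosome 5, 76329299 to 76374453, minus strand). Its highest value came from single-housed replicate 1, and the log2 difference was 0.20 (SE 0.130, −0.10 to 0.49). Without that library the differences were 0.055 for Flt1 and 0.061 for Kdr. Tek, the angiopoietin receptor gene also called Tie2, was at 13.6, 12.6 and 12.5 CPM against 12.7, 11.3 and 12.9 CPM (chromosome 4, 94405991 to 94541630, plus strand). These values overlapped widely, with a log2 difference of 0.07 (SE 0.0971, −0.15 to 0.29), or 0.014 without group-housed replicate 2 and 0.11 without group-housed replicate 3.

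Among the 15 of 16 growth factor and angiopoietin pathway genes that were tested, Flt1, Kdr and Tek included, 10 were higher and 5 lower (median 0.07), and 0 passed the test. The groups did not overlap for Nrp2 and Ptprb, both higher in single-housed mice. Over all genes tested, the groups did not overlap for 4.86% (2.46% higher in single-housed mice). That share is the background for this list and for each list below, and genes named for it carry no test. Ptprb encodes a phosphatase that restrains Tek in endothelial cells, and was at 39.2, 32.4 and 34.7 CPM in the single-housed mice against 25.8, 32.3 and 27.5 CPM in the group-housed mice. Single-housed replicate 2 and group-housed replicate 2 were nearly level, and the log2 difference was 0.31 (SE 0.111). Nrp2, a neuropilin co-receptor gene that neurons also express, was at 24.6, 23.1 and 24.2 CPM against 17.1, 22.6 and 19.9 CPM, with a difference of 0.27 (SE 0.111). In both genes, as in Vwf, group-housed replicate 1 was the lowest library and group-housed replicate 2 the highest of its group.

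The adhesion and junction genes showed no common direction. Pecam1, which encodes the adhesion molecule CD31 at endothelial contacts, was at 18.0, 15.6 and 15.8 CPM in the single-housed mice and 16.5, 17.7 and 17.7 CPM in the group-housed mice (chromosome 11, 106515532 to 106576595, minus strand). The highest library was single-housed and the next were group-housed, and the log2 difference was −0.07 (SE 0.0950, 95% interval −0.29 to 0.15), or −0.14 without single-housed replicate 1 and −0.026 without single-housed replicate 2. CD31 is also made by blood cells. Cdh5, the adherens junction cadherin gene, was at 15.9, 12.6 and 15.4 CPM against 12.2, 15.2 and 11.4 CPM (chromosome 8, 106625525 to 106668402, plus strand). In each group, 1 library departed from the others, single-housed replicate 2 being low and group-housed replicate 2 high, and the difference was 0.18 (SE 0.139, −0.14 to 0.50), or 0.31 without group-housed replicate 2 and 0.094 without group-housed replicate 3.

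Cldn5, which seals the tight junctions of brain endothelium, was the most uneven of the 10. It was at 38.1, 28.2 and 28.0 CPM in the single-housed mice and 43.0, 22.7 and 29.4 CPM in the group-housed mice (chromosome 16, 18776940 to 18778355, plus strand). The highest and the lowest library were both group-housed and differed 1.89-fold, so the housing difference was −0.01 with an SE of 0.220 (95% interval −0.51 to 0.49), and a moderate difference in either direction was not detectable. It was 0.27 without group-housed replicate 1 and −0.20 without group-housed replicate 2. Of the 18 genes in the junction list, the 3 above among them, 10 were higher and 8 lower with a median of 0.01, and 0 passed. The groups did not overlap for 1 of them, F11r, which encodes the junctional adhesion molecule JAM-A, at 7.42, 7.18 and 7.02 CPM in the single-housed mice and 8.72, 7.63 and 8.16 CPM in the group-housed mice (−0.18, SE 0.104). Esam, an endothelial adhesion gene, was at 18.3 ± 1.86 against 17.0 ± 0.888 CPM (SD, n = 3 each; 0.11, SE 0.103), and its difference was 0.028 without single-housed replicate 1.

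The transporter genes differed little between the housing groups. Slc2a1 was at 100.4, 88.3 and 94.7 CPM in the single-housed mice and 82.6, 90.5 and 92.6 CPM in the group-housed mice (chromosome 4, 118781350 to 118809934, plus strand). The middle of the range held libraries of both groups, with a log2 difference of 0.09 (SE 0.0787, 95% interval −0.09 to 0.27), or 0.045 without single-housed replicate 1 and 0.15 without single-housed replicate 2. Mfsd2a, whose product carries docosahexaenoic acid into the brain and holds back transcytosis, was at 26.8, 21.3 and 24.2 CPM against 23.5, 26.6 and 25.98 CPM (chromosome 4, 122624094 to 122638431, minus strand). Its lowest library was single-housed replicate 2, and the difference was −0.07 (SE 0.106, −0.31 to 0.17). Abcb1a was at 21.6, 20.3 and 20.9 CPM against 20.3, 20.7 and 21.3 CPM (chromosome 5, 8660092 to 8748570, plus strand). All 6 values lay within 1.07-fold of each other, and the difference was 0.01 (SE 0.0815, −0.17 to 0.20). Abcb1a has a close paralog, Abcb1b, and how reads that match both were counted is not given in the sources used here, so its count is uncertain to that extent.

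Of 20 barrier transport genes, all tested and including these 3, 11 were higher and 9 lower (median 0.01), and 0 passed. Slc22a8, the organic anion transporter OAT3 gene, was the 1 whose groups did not overlap, at 22.5, 19.9 and 22.5 CPM in the single-housed mice against 15.9, 19.1 and 17.5 CPM in the group-housed mice (0.31, SE 0.102). Slc6a6, the taurine transporter gene, was at 168 ± 11.98 against 152 ± 15.7 CPM (0.14, SE 0.0947). Of 16 genes of the Wnt signalling that maintains the barrier, 12 were higher and 4 lower (median 0.05), and 0 passed. The groups did not overlap for Apcdd1, a Wnt target and antagonist gene, at 32.03, 31.0 and 31.1 CPM in the single-housed mice and 26.6, 26.9 and 26.3 CPM in the group-housed mice (0.24, SE 0.0738), or for Lef1, a transcription factor gene of the pathway, at 4.43, 3.41 and 3.93 against 2.89, 2.95 and 2.98 CPM (0.41, SE 0.147). In Apcdd1 the gap between the groups was wider than the spread within either. Both genes are also expressed outside vessels, and 4.86% of all genes tested had groups that did not overlap. The summed level of the 16 genes was 764 to 789 CPM of the total in single-housed and 732 to 751 CPM in group-housed mice, without overlap. Ctnnb1, the beta-catenin gene, gave 66.4% of it, and the sum of the other 15 did not overlap either (255 to 267 against 246 to 249.8 CPM). Apcdd1 and Lef1, whose groups were apart, are part of that sum, which was not computed without them. How often sums of other gene sets are apart was not measured, so these sums carry no test.

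Single-housed replicate 1 stood apart in these genes. It was the highest of the 6 libraries for 9 of the 10, all but Cldn5, for which group-housed replicate 1 was highest. Over all genes tested, 16.1% were highest in that library. Of 34 other pan-endothelial genes, 17 were highest in it, as were 9 of 16 pericyte genes, 6 of 14 smooth muscle genes, 2 of 18 fibroblast genes and 20 of 20 striatal genes. The summed level of the 10 genes was 310 CPM of the total in single-housed replicate 1 and 260 to 274 CPM in the other 5 libraries. Group-housed replicate 1 was the lowest for 4 of the 10, Slc2a1, Flt1, Abcb1a and Vwf, where 26.4% of all genes tested were lowest in it, and the highest for 17 of 17 microglial and 16 of 16 oligodendrocyte genes. The median difference of the 10 genes was 0.068 with the striatal covariate described above, and 0.054 without the 3 libraries of highest striatal markers, against 0.08. The part of the microglial and oligodendrocyte levels in the values of the 10 genes was not tested.

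**Figure D4:**
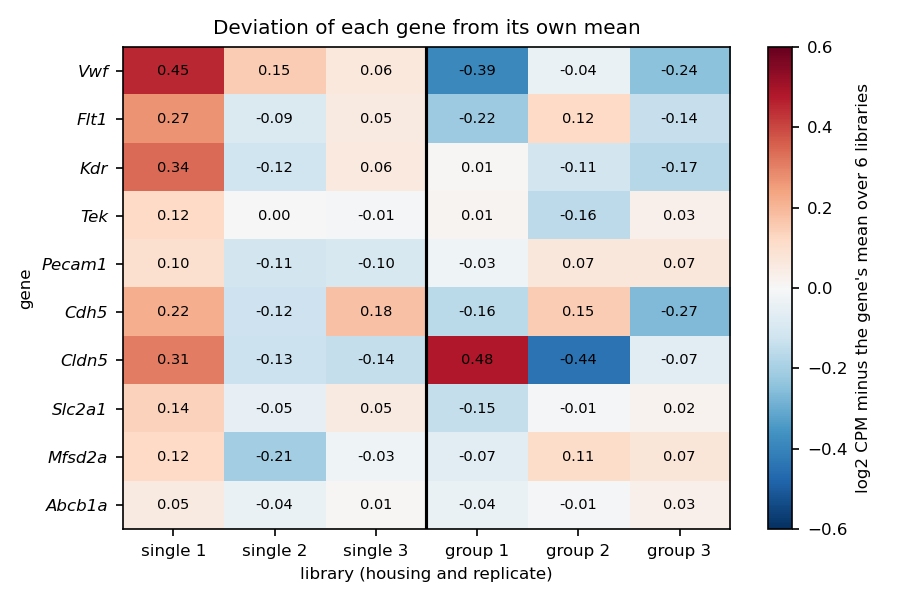
Deviation of log2 CPM from the gene's own mean over the 6 libraries (colour and printed value), for the 10 genes in rows and the libraries in columns, with a line between the housing groups. The column of single-housed replicate 1 is positive for each gene, and Cldn5 runs from 0.48 in group-housed replicate 1 to −0.44 in group-housed replicate 2.

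The spread over the 6 libraries differed widely between the 10 genes. The coefficient of variation of Cldn5 was 23.7% and that of Vwf 21.0%, above those of 88.6% and 85.5% of all genes tested. Counting error alone would give 3.19% and 4.15% at their mean counts. Cdh5, Kdr and Flt1 were at 14.2%, 13.7% and 12.8%, and Mfsd2a, Slc2a1, Pecam1 and Tek at 8.56%, 6.59%, 6.21% and 6.05%, where the median over all genes tested was 9.35%. Abcb1a was at 2.65%, below the 3.91% of counting error at its depth, so the differences between its libraries were within sampling noise. The spread of Vwf includes its housing difference, since within single-housed and group-housed libraries its coefficient of variation was 14.6% and 12.1%.

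Set against the other endothelial genes library by library, Vwf stood higher in the single-housed mice. The log2 CPM of Vwf minus the mean of the other 9 was −0.05, −0.07 and −0.26 for mice kept alone and −0.69, −0.33 and −0.52 for mice kept in groups. The groups did not overlap on this ratio, and their means differed by 0.38. The mean log2 CPM of the other 9 was 4.53 ± 0.141 against 4.46 ± 0.0143 (SD, n = 3 each), a difference of 0.06. Taken gene by gene, the ratio of Vwf did not overlap between the groups for 5 of the 9 (Flt1, Pecam1, Slc2a1, Abcb1a and Mfsd2a). The same held for 55.9% of the 15248 genes outside the 10, so this share of 5 in 9 was near the background. These ratios rest on the difference for which Vwf was chosen and are descriptions. Without the 3 libraries of highest striatal markers, the difference of Vwf exceeded the mean difference of the other 9 by 0.16 in place of 0.39 in the edgeR fits.

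Likeness was measured as the root mean square difference in log2 CPM, centred on each gene's mean over the 6 libraries, among genes with a mean of at least 1 CPM. The 5 genes closest to Vwf were Arhgap6 (0.0658), Fam40b (0.0915), Akap9 (0.0924), Ptprb (0.0947) and Caln1 (0.0982), out of 13784, with Pearson correlations of 0.93 to 0.97 over the 6 libraries. Vwf itself deviated by 0.271 from its mean on this measure. Among the other 9 genes, Flt1 was the closest to Vwf (0.161, rank 114), then Cdh5 (0.196, rank 430), Kdr (0.204, rank 603) and Slc2a1 (0.211, rank 825). Cldn5 was the farthest (0.423, rank 12888). The genes closest to the mean of the other 9 were Lamc1, Meis2, Scamp3, 2010204K13Rik and Esyt1 (0.0163 to 0.0287, out of 13776), and Vwf ranked 11525 there. How close the nearest genes lie for other patterns over these 6 libraries was not measured, so the ranks are descriptions.

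Other endothelial genes had groups apart more often than all genes tested, without passing the test. Over the 12 lists of endothelial function together, with the 10 genes left out, 172 genes were tested. Of these 110 were higher and 62 lower with a median of 0.04, 0 passed, and for 16 the groups did not overlap (9.30%, against 4.86% of all genes tested). Of the 16, 12 were higher in single-housed mice (6.98%, against 2.46%) and 4 lower. The lists were chosen with earlier results known, and these shares carry no test. A log2 difference as large as that of Vwf was found for 5 of the 172 (2.91%, against 2.25% of all genes tested), Foxo1, Gja5, Dll4, Cd36 and Aplnr. Counts per library were low for Gja5 (11 to 28), Cd36 (8 to 27), Aplnr (7 to 24) and Dll4 (45 to 99). Foxo1 was at 50.6, 32.2 and 18.7 CPM in the single-housed mice and 28.8, 21.9 and 19.97 CPM in the group-housed mice, with overlap (SE 0.308). The part of the striatal difference in the Foxo1 values was not tested.

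Lists that hold Vwf by its storage site and by its vessel type were mixed. Of 20 tested genes of Weibel-Palade bodies and haemostasis, Vwf included, 10 were higher and 10 lower with a median of 0.00301. Tfpi, which encodes an inhibitor of coagulation, was at 3.82, 3.83 and 4.20 CPM in the single-housed mice and 3.46, 3.44 and 3.49 CPM in the group-housed mice, without overlap (0.19, SE 0.127). Adamts13, whose product cleaves von Willebrand factor, was at 1.80 ± 0.289 against 2.29 ± 0.399 CPM (SD, n = 3 each; −0.34, SE 0.200). Among 13 tested venous genes, 11 were higher and 2 lower (median 0.09). Over all genes tested, 4.86% had groups that did not overlap. The groups did not overlap for Vwf, for Ephb4, an ephrin receptor gene of veins, at 6.87, 6.19 and 6.00 against 5.64, 5.14 and 5.91 CPM (0.19, SE 0.120), or for Plvap, which went the other way. Plvap encodes the diaphragm protein of permeable vessels and was at 8.55, 8.64 and 8.52 CPM in the single-housed mice and 10.7, 9.33 and 10.8 CPM in the group-housed mice (−0.26, SE 0.101).

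Of 22 arterial genes, 17 were higher and 5 lower (median 0.08). Dll4, a Notch ligand gene of arteries and sprouting tips, was at 3.02, 2.63 and 2.13 CPM in the single-housed mice against 2.29, 1.47 and 1.87 CPM in the group-housed mice (0.47, SE 0.214). Gja5, the connexin 40 gene, was low at 0.594 ± 0.226 against 0.385 ± 0.0269 CPM (0.62, SE 0.340; 0.27 without single-housed replicate 1). Of 15 capillary genes, 8 were higher and 7 lower (median 0.01), with Pglyrp1 at 3.23 ± 0.384 against 3.77 ± 0.234 CPM (−0.22, SE 0.146). The 1 capillary gene whose groups did not overlap was Slc22a8, higher in single-housed mice and described above. Of 13 tip cell and angiogenic genes, 10 were higher and 3 lower (median 0.02), with the apelin receptor gene Aplnr at 0.624 ± 0.0946 against 0.368 ± 0.149 CPM (0.77, SE 0.338). It was also among 5 tested genes of fenestrated vessels, of which 3 were higher and 2 lower (median 0.32). The groups did not overlap for 1 arterial gene, Gja5, and for 2 tip cell genes, Aplnr and Nid2, all higher in single-housed mice. Of the fenestrated list, Aplnr and Plvap, the latter lower, had groups apart. Over all genes tested, this held for 4.86%. None of these genes passed the test.

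Of 21 endothelial transcription factor genes, 14 were higher and 7 lower (median 0.05). Values of Gata2, higher, and Klf4, lower, did not overlap between the groups, where 4.86% of all genes tested had groups apart. Gata2, a zinc finger factor gene of endothelial and blood-forming cells, was at 4.03, 3.11 and 3.09 CPM in the single-housed mice and 3.04, 2.95 and 2.45 CPM in the group-housed mice (0.28, SE 0.171). The flow-responsive factor genes Klf4 and Klf2 were lower in single-housed mice by amounts that did not pass. Klf4 was at 3.66, 3.53 and 3.42 CPM in the single-housed mice and 3.83, 4.29 and 4.70 CPM in the group-housed mice, without overlap (−0.27, SE 0.135). Klf2 was at 4.61, 5.80 and 4.65 against 6.43, 5.70 and 5.91 CPM, with overlap (−0.26, SE 0.136). Of 34 pan-endothelial genes, 22 were higher and 12 lower (median 0.04), and the groups did not overlap for Ptprb and Clec14a, higher, and Ramp2, lower. Clec14a, an endothelial lectin gene, was at 3.97, 4.28 and 4.11 against 3.68, 2.95 and 3.30 CPM (0.32, SE 0.139).

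**Figure D5:**
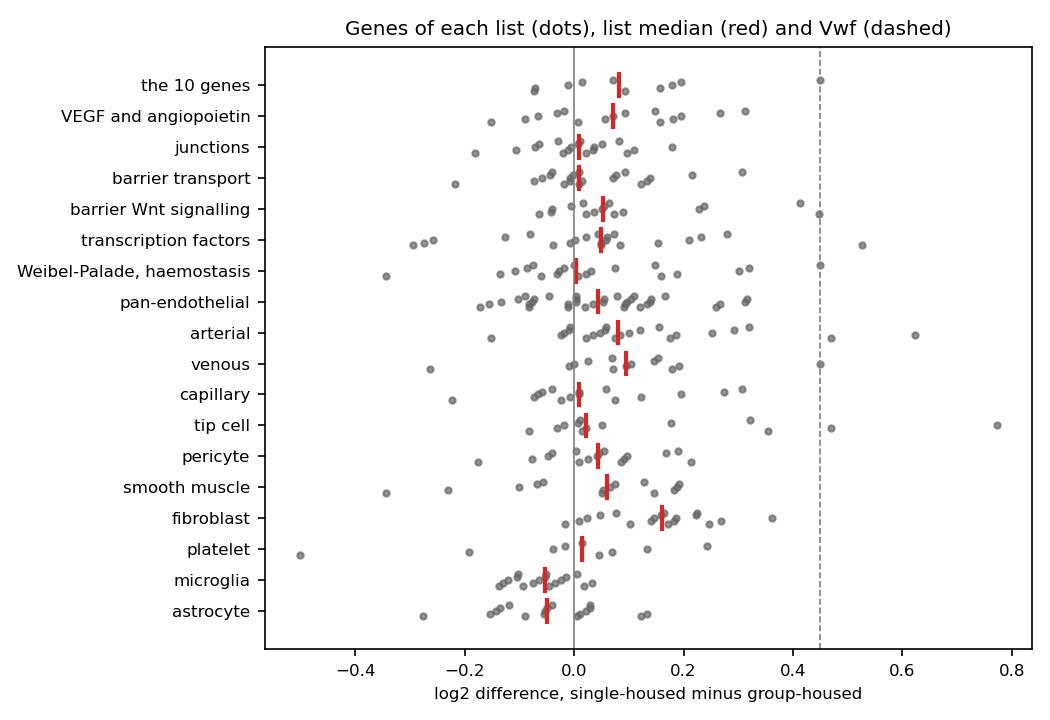
Log2 difference (single-housed minus group-housed) of each tested gene of the endothelial lists and of other cell types (grey dots), with the list median in red and the value of Vwf, 0.45, as a dashed line; the vertical scatter has no meaning. The medians of the endothelial lists shown lie between 0.00301 and 0.09, below the value of Vwf; the 5 genes of fenestrated vessels, with a median of 0.32, are not drawn.

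Markers of the other cells of the vessel wall and of blood were measured beside these genes. Of 16 pericyte genes, 0 had groups that did not overlap, where 4.86% of all genes tested did. Smooth muscle genes summed to 66.2 to 75.8 CPM of the total in single-housed libraries against 62.6 to 76.4 CPM in group-housed libraries. Of the 14 tested, 1 had groups that did not overlap, Smtn, at 8.67, 8.13 and 7.29 against 7.07, 7.23 and 6.92 CPM (0.18, SE 0.109). Fibroblast genes summed to 435 to 467 against 386 to 426 CPM, with 17 of 18 genes higher and 0 of the 18 with groups apart by itself. These sums did not overlap, but without Col6a1, a collagen gene and the highest of the list, they were 325 to 345 against 270.05 to 330.5 CPM and did. The unweighted mean log2 CPM of the list also overlapped, at 3.82, 3.84 and 3.95 for single-housed libraries and 3.47, 3.83 and 3.77 for group-housed libraries. Megakaryocytes and platelets also make von Willebrand factor. Their 17 marker genes summed to 29.6 to 33.3 against 28.2 to 35.3 CPM, and 8 of the 17 did not pass the filter on low counts. Gp1bb, at 363 to 546 counts, and Itgb3, at 176 to 215, made up most of the sum, and Pf4 had 10 to 23 counts, Ppbp 0 to 1 and Gp6 0 in each library. Leukocyte genes summed to 146 to 169 against 148 to 165 CPM, of which Coro1a gave 89.3%, and 13 of 18 did not pass the filter. Cd4 was at 23.6, 9.36 and 1.02 CPM in the single-housed mice and 9.28, 1.54 and 1.91 CPM in the group-housed mice. It was highest in the 3 libraries of highest striatal markers, and the part of the striatal difference in the Cd4 values was not tested. Ptprc, the gene of the leukocyte antigen CD45, had 69 to 106 counts, Lyz2 102 to 158 and Cd52 31 to 49. Cd3e, Cd8a and S100a8 had at most 3 counts in any library. The globin gene Beta-s, a marker of red cells, had 41 to 411 counts. It was at 1.25, 1.49 and 4.62 CPM in the single-housed mice and 15.4, 1.47 and 6.92 CPM in the group-housed mice, with overlap (−1.68, SE 0.747). The part of the fibroblast and red cell levels in the Vwf values was not tested.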

How the data were processed

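RNA from prefrontal cortex was sequenced in 6 libraries, 3 per housing group, made with a stranded mRNA kit per the labels' protocols. The authors deposited raw read counts per gene. The submitters' processing notes name STAR, featureCounts, FastQC and the build mm9. Their versions, the annotation, the strand setting and the handling of reads that match several places are, in the sources used here, not given. Gene lengths from the deposited table, per the file headers, served for TPM. No exon of another row overlapped an exon of the 10 genes, on either strand.

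Counts were fitted in edgeR 4.0.16 (R 4.3.3) by the quasi-likelihood test, with TMM factors, filterByExpr (minimum count 10, minimum total count 15) and Benjamini-Hochberg adjustment over 15258 genes, threshold 0.05. Standard errors came from the F statistic. Log2 CPM used a prior count of 2. The common biological coefficient of variation was 11.8%. Data were simulated from these means and library sizes (3 simulations, 15120 genes), with counts drawn for each gene independently. In them, 50.7% of 296 changes of 1.5-fold and 84.8% of 297 changes of 2-fold were recovered. Shifts shared by many genes, such as those of striatal genes, were not simulated, so recovery in the real libraries may differ. Chi-square values comparing pairs of libraries were 8.21 to 38.7 per degree of freedom, so no pair agreed within sampling noise. Floors and counting errors cover counting error only.

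The 10 genes, the lists and the tests were chosen with earlier results of these data known. The rule named the 10 genes, the 2 genes of smallest unadjusted p outside them in each of 12 endothelial lists, the 2 highest genes of each cell type list (not all reported here) and the 5 genes most like Vwf and like the mean of the other 9. Foxo1, Cd36, Ramp2, Gata2, Nid2, Smtn, Ctnnb1, Slc17a7 and single markers of blood cells were named after their values were seen. Alternatives were DESeq2 size factors, upper quartile factors, total counts, no filter, a mean CPM above 1, a block for the replicate number, limma-voom (limma 3.58.1), DESeq2 (1.42.0), robust edgeR and leaving out each library, with a striatal covariate and the fit without 3 libraries added after seeing the data. List sums without their highest gene were also computed after seeing the data.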

Additional observations from a re-analysis of the deposited data

How the results depend on the processing

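Of the 170 values of the 10 genes under 17 alternatives, 160 kept their direction and 0 passed the threshold. The 321 values of the 19 other endothelial genes named by the rule above all kept theirs, and 0 passed. Foxo1, Cd36, Ramp2, Gata2, Nid2 and Ctnnb1 were not among these 19. Without the 3 libraries of highest striatal markers, the Foxo1 values left were 18.7 CPM single-housed against 21.9 and 19.97 CPM group-housed. Leaving out 1 library moved the differences of Esam to 0.028 to 0.18, Nrp2 to 0.17 to 0.37, Slc6a6 to 0.061 to 0.21, Adamts13 to −0.43 to −0.20 and Pglyrp1 to −0.32 to −0.14. Among the 10 genes, the values that changed sign belonged to those with a difference near 0. Cldn5 was at 0.019 with the replicate block, 0.030 with limma-voom and 0.10 without the 3 libraries highest in striatal markers, and ranged from −0.20 to 0.27 when 1 library was left out. Abcb1a was at −0.0047 without those 3 libraries and ranged from −0.011 to 0.044, and Mfsd2a from −0.16 to 0.015, when 1 library was left out; the cause was not tested. The number of the 10 genes with a higher mean ranged from 6 to 9, and their median from 0.04 to 0.12, over the fits that left out 1 library. The count of genes past the threshold over all genes was 8 with DESeq2, 4 without those 3 libraries and 0 to 1 when 1 library was left out, and none of these was among the 10. The excess of Vwf over the mean of the other 9 was 0.16 without those 3 libraries and 0.30 to 0.48 when 1 library was left out. That fit takes the spread of its lone single-housed library from the other group. The median of the 5 tested genes of fenestrated vessels was −0.15 with a mean CPM above 1, where fewer of them were tested, against 0.32.

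The housing groups share replicate numbers, but not every same-numbered pair deviated together: the correlations of the deviations from the group means were 0.27, −0.32 and 0.17 for numbers 1, 2 and 3, and the closest pairs across groups did not share a number (0.35 for single-housed replicate 3 with group-housed replicate 2, and 0.32 for single-housed replicate 2 with group-housed replicate 1). With the replicate number as a block, 0 of the 10 genes and 0 genes in all passed, and Vwf had a log2 difference of 0.44. With 3 libraries a group, the 95% intervals of the 10 genes were up to 1.0002 wide on the log2 scale, which limits what could be seen.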
